A study of Mus musculus with 4 samples.

Results

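Solute carriers are membrane proteins that move ions, nutrients, metals and metabolites across the plasma membrane and the membranes of organelles, and their genes share the Slc prefix followed by a family number. The 141 genes described here are the well represented solute carrier genes in testis cells of 7-day-old C57BL/6 mice. They are the protein-coding genes whose symbol begins with Slc, a family number, the letter a and a member number, and whose mean level in 2 input libraries was at least 10 CPM (counts scaled to a library total of 1000000). Of 350 genes with such a symbol 340 were eligible after non-coding genes, Slc22a18 and Slc38a4 were left out. Of these 141 reached the threshold, out of 17422 genes tested in the whole table of 55357. The family Slc25, most of whose proteins are carriers of the inner mitochondrial membrane, gave 33 members, and the other families gave 108. All 33 are called mitochondrial carriers below by their family number, and the place of each protein was not examined.

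The libraries compared came from testis cells of C57BL/6 mice that were irradiated with ultraviolet light (200 mJ per square cm at 254 nm), which links RNA to the proteins it touches. The DDX20 RIP group (2 libraries) holds RNA that came down with an antibody to DDX20, a DEAD-box RNA helicase of the complex that assembles spliceosomal small nuclear ribonucleoproteins. The labels of the RIP libraries give catalogue numbers of this antibody that differ in 1 digit. The input group (2 libraries) is 10% of the total RNA of such cells, with no antibody. The labels name no sorting of cell types, no precipitation with another antibody was analysed here, and a higher level in RIP is a larger share of the precipitate than of the input, not a measure of binding.

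Plasma membrane carriers decide which nutrients a cell can take up, and many are regulated: amino acid carriers of the Slc38 and Slc7 families respond to amino acid supply, and cation-chloride cotransporters of the Slc12 family set cell volume and chloride. Mitochondrial carriers exchange nucleotides, phosphate, carboxylates, amino acids and cofactors between the cytosol and the matrix, and are short proteins built from repeats of a common unit. In the testis, Sertoli cells take up glucose and amino acids and pass lactate and other nutrients to germ cells, and a germ cell isoform of the ADP/ATP carrier is encoded by Slc25a31.

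The read counts summed to 38458014 and 37927689 in the RIP libraries and to 21913977 and 21416567 in the input libraries. Most nonzero counts were even (65.37% to 67.4% per library), so both mates of a read pair may have been counted, and a fit on halved counts is given as an alternative. With all counts halved, replicate libraries differed little more than counting noise. The median chi-square statistic was then 1.15 times that of sampling noise between the RIP libraries and 1.17 times between the input libraries. It would be larger on the counts as deposited, which the main test used. The labels do not say that replicates came from separate animals or cell preparations, so p-values measure only the spread between these libraries, which may be technical. Markers of Sertoli cells were abundant, with a summed level of 2500 and 2523 CPM in RIP and 4768 and 4749 CPM in input, and markers of spermatogonia summed to 420 and 417 CPM in RIP and 967 and 959 CPM in input. These sums are CPM of the library total, whereas calls are on the scale of the main test, described below. On that scale 2 of 8 markers in each of these lists were higher in RIP and 5 lower. Scaled by total counts, Sox9 (-0.23) and Kit (-0.29) were called lower too. Gata4 (-0.09), Zbtb16 (0.04) and Gfra1 (-0.0006), called higher in the main test, then did not pass. The summed levels of other cell types were also lower in RIP: 197.75 and 197.98 CPM in RIP and 453.68 and 446.57 CPM in input for Leydig cells, 776 and 800 CPM in RIP and 1447 and 1430 CPM in input for stromal cells, and 61.9 and 62.4 CPM in RIP and 269 and 273 CPM in input for red blood cells. Endothelial and macrophage markers stood at most at 36.8 CPM in RIP and 134 CPM in input. The part of these cell types in the results below was not tested. A lower marker level in RIP is a smaller share of the precipitate than of the input, not a count of cells. For the input level itself, the number of cells of a type and the RNA per cell cannot be told apart in such bulk libraries.

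More solute carrier messages were higher than lower in the DDX20 precipitate, while among the mitochondrial carriers slightly more were lower. Of 141 members 87 (61.7%) rose and 36 (25.5%) fell in edgeR's quasi-likelihood test at an adjusted p of 0.05, and 18 did not pass. Over all 17422 genes tested 38.7% were called higher and 38.6% lower, and over the 10116 genes of any type that reached the same input threshold 54.2% were called higher and 35.9% lower. The members are all protein-coding, and of the 9819 protein-coding genes at that threshold 55.4% were called higher and 34.5% lower. The threshold used the input level, which is also the denominator of each fold change, and these counts are a description of genes chosen for a high input level. All 141 members passed the filter on low counts. At least 2-fold changes were called for 31 members higher and 7 lower, and for 23.2% and 15.7% of all genes that reached the threshold. Both RIP libraries lay above both input libraries for 90 members and below them for 37, and 14 overlapped. Of all genes tested 42.7% lay above and 45.3% below, and of those at the input threshold 56.6% and 38%.

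Fold changes are given on the scale set by the trimmed mean of M values (TMM), and levels from here on are CPM of the library size scaled in that way. Scaling by total counts lowers each log2 fold change by a median of 0.35 and upper-quartile scaling by 0.34. The median log2 fold change of all tested genes was -0.05 with TMM, -0.39 under upper-quartile and -0.40 under total-count scaling. With total counts 60 members were higher and 55 lower, beside 41.8% and 47.5% of all genes at the input threshold. Of the members that passed under TMM or total counts 18 changed sign between them, all positive with TMM. Of these 5 were called higher with TMM and lower with total counts, namely Slc16a3, Slc25a4, Slc9a3r2, Slc25a51 (0.20 with TMM and -0.14 with total counts) and Slc30a4 (0.20 and -0.15). The last 2 are named for this change, after their values were seen.

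Mitochondrial carriers had a median log2 fold change of -0.13, with 12 of 33 higher, 15 lower and 6 not called. With total counts 5 were higher and 22 lower. Members of other families had a median of 0.52, with 75 of 108 higher, 21 lower and 12 not called, and with total counts 55 were higher and 33 lower. The median over all genes at the same input threshold was 0.27, and over the protein-coding ones 0.30. Without input replicate 1 the median of the mitochondrial carriers was -0.046, and the difference of -0.65 between the medians of the mitochondrial and other families became -0.55. This difference was not tested. As shares of all counts, which amounts to total-count scaling, the 33 mitochondrial carriers held 0.184% and 0.187% of RIP libraries and 0.234% and 0.236% of input libraries. The 108 other members held 0.841% and 0.838% of RIP libraries and 0.601% and 0.598% of input libraries. Neither share overlapped between the groups. On the TMM scale the summed mean levels of the mitochondrial carriers were 2094.9 CPM in RIP and 2087.6 CPM in input, so that their lower share in RIP rests on the scaling, and those of the other members were 9479.3 CPM in RIP and 5322.4 CPM in input.

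**Figure D1:**
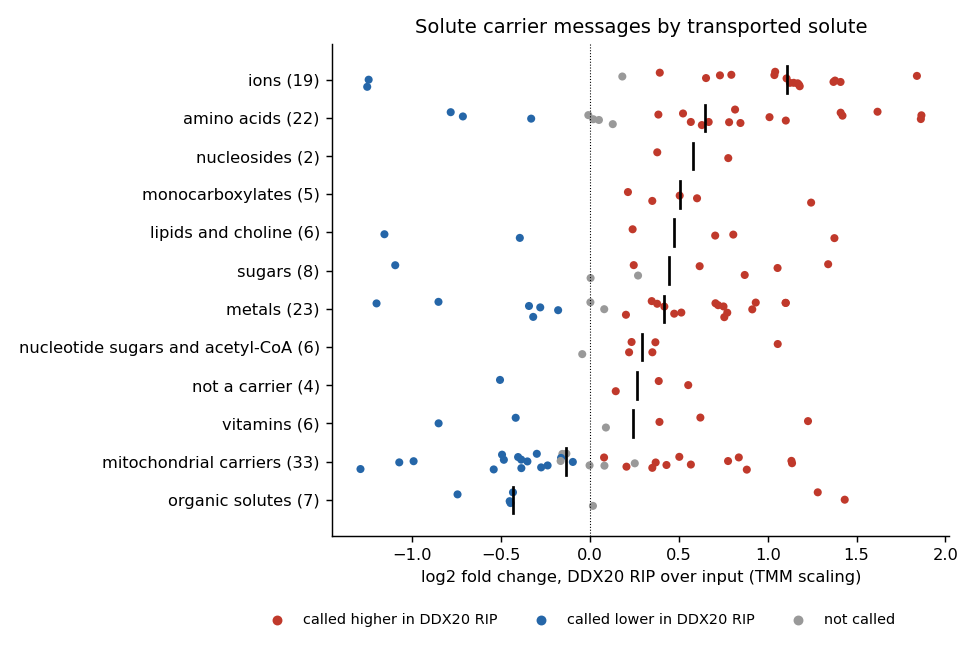
Fitted log2 fold change of DDX20 RIP over input (x axis, TMM scaling) for each of the 141 members, 1 point per gene, in rows by the solute their family carries, with the number of members in brackets and a black bar at the median; colour gives the call of edgeR's test. Ion carriers stand furthest to the right, with a median of 1.11, and mitochondrial carriers spread from -1.29 to 1.14 around a median of -0.13.

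Amino acid carriers held the largest increases. Of 22 members 15 (68.2%) rose, 3 (13.6%) fell and 4 were not called, with a median log2 fold change of 0.65. Of all genes at the input threshold 54.2% were called higher and 35.9% lower, and of all 141 members 61.7% and 25.5%. Each count by role or family here and below stands beside these shares, and no role was tested against them. Slc38a2, a sodium-coupled carrier of small neutral amino acids also called SNAT2, had 998.8 and 974.3 CPM in RIP against 274.2 and 267.4 CPM in input. Slc38a1, its close relative SNAT1, had 555.4 and 545.4 CPM in RIP against 151.5 and 151.3 CPM in input. Both RIP libraries lay more than 3-fold above both input libraries for each of these genes. Their log2 fold changes were 1.87 ± 0.0264 and 1.86 ± 0.0293 (SE, 2 libraries per group here and below), with edgeR adjusted p of 1.1e-34 and 1.8e-33. Slc38a2 (ENSMUSG00000022462.8) lies on chromosome 15 from 96687392 to 96699730 and Slc38a1 (ENSMUSG00000023169.16) beside it from 96571418 to 96642913 (GRCm38), and their coding sequences share 65.3% of aligned bases and no identical run longer than 17 nt, against reads of 150 nt.

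Slc36a4, a carrier of proline and tryptophan, had 127.2 and 133.8 CPM in RIP against 44.7 and 40.3 CPM in input, a log2 fold change of 1.62 ± 0.04997. Slc38a10, a Slc38 member with a long cytoplasmic tail, had 394.8 and 374.0 CPM in RIP against 147.2 and 139.9 CPM in input. Slc6a6, the taurine carrier, had 681.1 and 653.4 CPM in RIP against 249.5 and 252.4 CPM in input. All of them lay above input in both RIP libraries, and Slc38a10 and Slc6a6 rose by 1.42 ± 0.0337 and 1.41 ± 0.0279 on the log2 scale. The 2 subunits of the large neutral amino acid carrier, by contrast, did not pass the test. Slc7a5, the light chain LAT1, had 74.7 and 73.1 CPM in RIP against 71.8 and 74.2 CPM in input, and Slc3a2, the heavy chain CD98, had 179.3 and 185.3 CPM in RIP against 184.6 and 182.5 CPM in input. Their groups overlapped, with log2 fold changes of 0.02 ± 0.0481 and -0.01 ± 0.0338 (edgeR adjusted p of 0.740 and 0.801). They were called lower with total counts, at -0.33 and -0.36, and after the coding-length offset, at -0.23 and -0.28. The lowest of the amino acid carriers was Slc1a6, a glutamate carrier, with 13.4 and 11.6 CPM in RIP against 22.9 and 20.1 CPM in input, which fell by 0.78 on the log2 scale.

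Ion carriers had the highest median of any role, a log2 fold change of 1.11. Of 19 members 16 (84.2%) rose, 12 of them at least 2-fold, 2 (10.5%) fell and 1 was not called. Of all genes at the input threshold 54.2% were called higher, and 23.2% at least 2-fold higher. All 5 members of the cation-chloride cotransporter family Slc12 rose, as did with TMM scaling all 5 genes with the Slc9 prefix, 3 of which encode sodium/proton exchangers and 2 of which are the scaffold genes described below. Slc4a4, an electrogenic sodium bicarbonate cotransporter, had 110.9 and 105.0 CPM in RIP against 30.4 and 29.8 CPM in input, a log2 fold change of 1.84 ± 0.0539. Slc12a2, the sodium-potassium-chloride cotransporter NKCC1, had 175.5 and 171.3 CPM in RIP against 65.8 and 64.7 CPM in input, a log2 fold change of 1.41 ± 0.0407. The RIP libraries of both genes lay above the input libraries.

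The members that fell were also bicarbonate or anion carriers. Slc4a5, a relative of Slc4a4 with the same kind of substrate, had 6.06 and 5.26 CPM in RIP against 13.3 and 13.6 CPM in input. Slc26a7, an anion exchanger, had 7.51 and 8.19 CPM in RIP against 19.9 and 17.6 CPM in input. Both lay below input in each RIP library, at log2 fold changes of -1.25 ± 0.131 and -1.25 ± 0.114. Their coding sequences are 3006 and 1971 nt long, and after the coding-length offset described below they stood at -2.17 and -1.76.

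**Figure D2:**
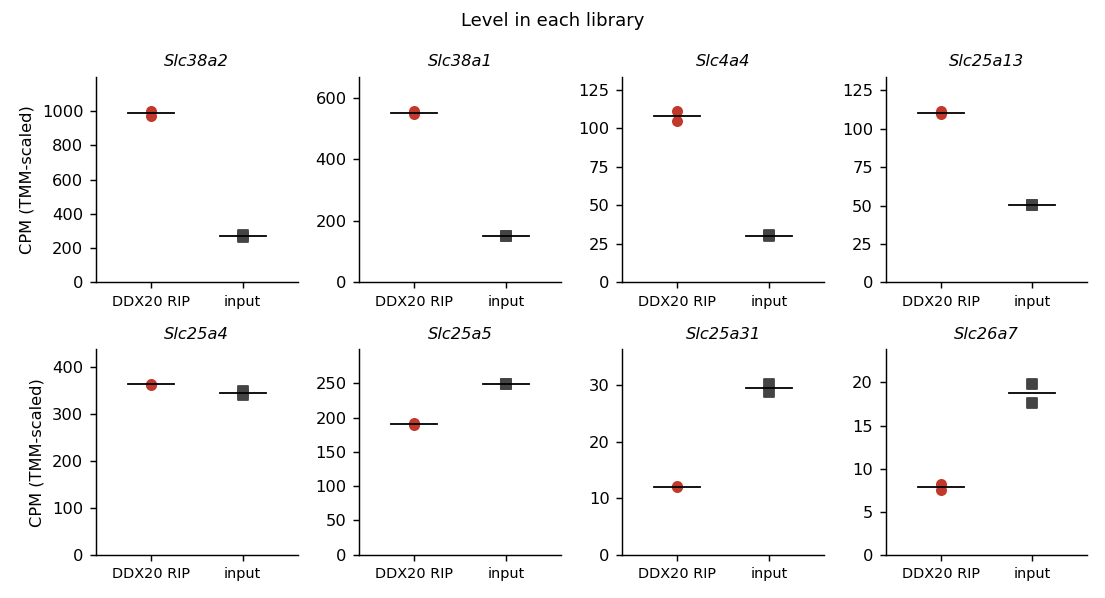
Level in each library (y axis, TMM-scaled CPM from 0) for 8 members, with 2 DDX20 RIP libraries as circles on the left and 2 input libraries as squares on the right of each panel and a bar at each group's mean. In Slc38a2 the RIP libraries sit at 974.3 and 998.8 CPM, above input at 267.4 and 274.2 CPM, and in Slc25a31 the order is the reverse, with 11.9 and 12.2 CPM in RIP and 28.8 and 30.3 CPM in input.

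Sugar and monocarboxylate carriers included the supply route for glucose and lactate. Of 8 genes of the sugar carrier families 5 (62.5%) rose, 1 fell and 2 were not called, near the 61.7% of all members that rose. All 5 genes of the monocarboxylate family Slc16 rose with TMM scaling. Slc2a1, the glucose carrier GLUT1, had 116.3 and 110.9 CPM in RIP against 64.6 and 59.6 CPM in input, a log2 fold change of 0.87 ± 0.0470. Its relative Slc2a3 (GLUT3) was below the level threshold, at 2.704 and 1.79 CPM of the library total in RIP against 3.88 and 3.92 CPM in input, and did not pass the test (log2 fold change of -0.44, edgeR adjusted p of 0.0799). Slc45a4 was the highest of the sugar group, with 300.6 and 301.4 CPM in RIP against 116.2 and 121.5 CPM in input. The lowest was Slc50a1, the mammalian SWEET sugar carrier and a short message of 666 coding nt, with 13.8 and 15.7 CPM in RIP against 31.1 and 31.9 CPM in input, a log2 fold change of -1.10 ± 0.0856. The groups did not overlap in Slc2a1, Slc45a4 or Slc50a1.

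Among monocarboxylate carriers, Slc16a1 (MCT1) had 164.8 and 161.9 CPM in RIP against 109.9 and 105.3 CPM in input, a log2 fold change of 0.60 ± 0.0381. Slc16a3 (MCT4), known for lactate export, had 219.7 and 200.7 CPM in RIP against 183.4 and 179.2 CPM in input. It rose by 0.21 ± 0.0368 with TMM but was negative under upper-quartile (-0.13) and total-count (-0.14) scaling, and did not pass the test after an offset for coding length (0.03). Slc16a10, a carrier of aromatic amino acids, had the largest fold change of the family, with 25.04 and 22.4 CPM in RIP against 9.20 and 10.8 CPM in input. Of 7 listed genes of plasma membrane partners 4 rose, 2 fell and 1 was not called. Bsg, which encodes basigin and brings MCT1 and MCT4 to the membrane, was among those that fell. It had 239.0 and 237.7 CPM in RIP against 535.3 and 534.0 CPM in input, a log2 fold change of -1.17 ± 0.0272. Emb, another gene of this list, rose by 0.36 ± 0.0687 with TMM and stood at 0.009 with total counts, where it did not pass.

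Metal carriers moved in both directions around a small positive median of 0.42. Of 23 members 15 (65.2%) rose, 6 (26.1%) fell and 2 were not called, near the 61.7% and 25.5% of all 141 members. The median over all genes at the input threshold was 0.27. Slc41a2, a magnesium carrier, was the highest, with 21.1 and 21.3 CPM in RIP against 9.565 and 10.2 CPM in input. The related zinc importers Slc39a6 and Slc39a10 both rose with every scaling, with 100.8 and 94.0 CPM in RIP against 62.1 and 56.1 CPM in input for Slc39a6. Slc39a10 had 195.9 and 191.3 CPM in RIP against 132.9 and 138.3 CPM in input. After the coding-length offset the log2 fold change of Slc39a6 was 0.07 and did not pass the test, and that of Slc39a10 was -0.22 and was called lower. Slc39a8, an importer of zinc and manganese, had 8.04 and 8.37 CPM in RIP against 19.7 and 18.05 CPM in input, a log2 fold change of -1.20 ± 0.111. Slc30a2, which exports zinc into vesicles, had 28.2 and 29.9 CPM in RIP against 51.9 and 53.2 CPM in input, a log2 fold change of -0.85 ± 0.0655. Both lay below input in each RIP library, and both stayed lower after the coding-length offset, at -1.37 and -0.78.

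The remaining families were small. Both equilibrative nucleoside carriers rose with TMM, Slc29a3 by 0.78 ± 0.102 and Slc29a1 by 0.38 ± 0.0416 on the log2 scale, though Slc29a1 stood at 0.03 with total counts, where it did not pass. Of 6 genes of the vitamin carrier families 3 rose and 2 fell, and their median of 0.24 was -0.108 with total counts. Slc23a2, a sodium-coupled vitamin C carrier, had 111.2 and 102.9 CPM in RIP against 45.1 and 46.4 CPM in input, whereas Slc52a3, a riboflavin carrier, had 20.5 and 17.9 CPM in RIP against 33.6 and 35.9 CPM in input. The groups did not overlap for either vitamin carrier, at log2 fold changes of 1.23 ± 0.0508 and -0.85 ± 0.0807. Of 6 carriers of fatty acids and choline 4 rose and 2 fell. Slc44a1, a choline-like carrier, had 448.2 and 435.0 CPM in RIP against 171.2 and 169.2 CPM in input. Slc27a6, a fatty acid transport protein, had 4.11 and 3.93 CPM in RIP against 8.39 and 9.56 CPM in input. Their log2 fold changes were 1.38 ± 0.0301 and -1.16 ± 0.158.

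Of 6 carriers of nucleotide sugars and acetyl-CoA, which serve the Golgi and the endoplasmic reticulum, 5 rose and 1 was not called. Their median of 0.29 was -0.056 with total counts. Slc33a1, the acetyl-CoA carrier, had 26.5 and 24.6 CPM in RIP against 12.5 and 12.1 CPM in input, and Slc35a1, the CMP-sialic acid carrier, had 16.5 and 17.6 CPM in RIP against 19.5 and 15.6 CPM in input. Slc33a1 was separated between the groups and Slc35a1 overlapped, and Slc35a1 was called lower with total counts (-0.39). The Slc35 genes of other letters, which the symbol rule leaves out, also moved in both directions. Of 17 tested 9 rose, 5 fell and 3 were not called, beside 38.7% higher and 38.6% lower of all genes tested and 54.2% and 35.9% at the input threshold. Slc35e3 was the highest of them at 0.91 ± 0.107, and Slc35b2, a carrier of the sulfate donor PAPS, stood at -0.28 ± 0.0455. With TMM scaling, organic solute carriers were the only role other than the mitochondrial one with a negative median (-0.43), with 2 of 7 higher and 4 lower. Slc22a23 had 45.4 and 43.5 CPM in RIP against 17.3 and 15.6 CPM in input, and Slc47a2, a multidrug and toxin extruder, had 7.27 and 9.08 CPM in RIP against 15.4 and 12.05 CPM in input. Both differed without overlap, at 1.43 ± 0.0776 and -0.75 ± 0.132.

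The symbol rule also admits 4 genes that do not encode carriers. Slc9a3r1 and Slc9a3r2 encode the NHERF scaffold proteins that bind exchangers, and had 277.0 and 271.4 CPM in RIP against 214.0 and 205.5 CPM in input for Slc9a3r1. Slc9a3r2 had 60.9 and 58.5 CPM in RIP against 54.8 and 53.2 CPM in input. Slc4a1ap, named for an adaptor of the red cell anion exchanger, had 82.6 and 83.3 CPM in RIP against 56.4 and 56.7 CPM in input. Slc7a6os, named for its place opposite Slc7a6, had 24.9 and 28.02 CPM in RIP against 37.9 and 37.2 CPM in input. Thus 3 of them rose and 1 fell. Slc9a3r1 did not pass with total counts (0.04). Slc9a3r2 (0.14 with TMM) was at -0.20 under both total-count and upper-quartile scaling, and it lost its call without RIP replicate 1 (0.12), without input replicate 2 (0.12) and with halved counts (0.09). Slc4a1ap stood at -0.04 after the coding-length offset. Slc4a1 itself, the red cell anion exchanger, was not tested, with 0.0520 and 0 CPM of the library total in RIP against 0.0913 and 0.467 CPM in input.

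Among the 33 mitochondrial carriers, the 5 highest included both aspartate/glutamate carriers and a pair of calcium-regulated ATP-Mg carriers. Slc25a25, a calcium-regulated carrier of ATP-Mg and phosphate, had 34.2 and 32.96 CPM in RIP against 14.1 and 16.4 CPM in input. Slc25a13 and Slc25a12, the aspartate/glutamate carriers citrin and aralar, both rose. Slc25a13 had 109.5 and 111.3 CPM in RIP against 50.34 and 50.34 CPM in input, and Slc25a12 had 113.5 and 112.1 CPM in RIP against 61.6 and 60.8 CPM in input. These 3 members stood clear of input in both RIP libraries, at log2 fold changes of 1.14 ± 0.0845, 1.13 ± 0.0468 and 0.88 ± 0.0445. The next were Slc25a16, at 0.84 ± 0.110, and Slc25a23, another calcium-regulated ATP-Mg carrier, at 0.78 ± 0.0668. Coding lengths of Slc25a25, Slc25a13, Slc25a12, Slc25a16 and Slc25a23 were 1545, 2031, 2034, 999 and 1404 nt, all above the family's median of 963 nt.

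The lowest mitochondrial carrier was Slc25a31, the ADP/ATP carrier of germ cells, with 11.9 and 12.2 CPM in RIP against 30.3 and 28.8 CPM in input. Slc25a18, a glutamate carrier, had 9.10 and 9.11 CPM in RIP against 18.4 and 19.95 CPM in input. Slc25a45 had 8.28 and 8.63 CPM in RIP against 16.6 and 17.1 CPM in input. In all 3 the RIP libraries lay below both input libraries, at log2 fold changes of -1.29 ± 0.0883, -1.07 ± 0.107 and -0.99 ± 0.112, and all 3 stayed lower after the coding-length offset, at -1.01, -0.79 and -0.64. Slc25a26, the mitochondrial carrier of S-adenosylmethionine, stood at -0.54 ± 0.119 and Slc25a11, the oxoglutarate carrier, at -0.50 ± 0.0498. Slc25a26 did not pass after the offset, at -0.15.

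The ADP/ATP carriers are a family of isoforms with similar proteins, and their messages differed in the precipitate. Slc25a4 (ANT1) had 363.8 and 361.5 CPM in RIP against 339.1 and 347.7 CPM in input, and Slc25a5 (ANT2) had 189.0 and 191.5 CPM in RIP against 248.2 and 249.3 CPM in input. Slc25a4 lay slightly above input and Slc25a5 below it. Their log2 fold changes were 0.08 ± 0.0277 and -0.39 ± 0.0315, beside -1.29 ± 0.0883 for Slc25a31. That of Slc25a4 did not pass with halved counts (0.02) or once input replicate 1 was left out (0.07), and was negative under upper-quartile (-0.26) and total-count (-0.27) scaling. After the coding-length offset Slc25a4 stood at 0.42, and Slc25a5, at -0.05, did not pass. The difference of 0.47 between Slc25a4 and Slc25a5 does not depend on the scaling, which moves both alike, and was not tested. Per kb of exon, the mean levels of Slc25a5 and Slc25a4 were 116 and 154 CPM per kb in RIP, and 151 and 146 CPM per kb in input, where these were the highest levels per length of all 141 members. Any processed copies of these genes elsewhere in the genome could share reads with them, which was not tested.

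The coding sequences of Slc25a4 and Slc25a5 are both 897 nt long, and that of Slc25a31 is 963 nt. Their coding sequences share 78.7% of aligned bases between Slc25a4 and Slc25a5, 67.9% between Slc25a4 and Slc25a31 and 69.2% between Slc25a5 and Slc25a31, and the longest run of identical bases was 21 nt. To show how far the messages are distinguishable by 150-nt reads, the stretch that encodes the signature of ADP/ATP carriers, a motif these proteins share, is given from the transcripts of GENCODE M21 (GRCm38). Capitals mark the 18 bases of the signature, with 18 bases on either side.
Slc25a4: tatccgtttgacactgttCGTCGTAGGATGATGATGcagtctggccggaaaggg
Slc25a5: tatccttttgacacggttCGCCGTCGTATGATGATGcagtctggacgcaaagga
Slc25a31: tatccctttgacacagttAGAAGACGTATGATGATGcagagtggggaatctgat
The stretch lies on chromosome 8 from 46208399 to 46208452 (minus strand) in Slc25a4 and on chromosome X from 36797822 to 36797875 (plus strand) in Slc25a5, each within 1 exon. In Slc25a31 it crosses an intron, on chromosome 3 between 40722713 and 40724882 (plus strand). Slc25a4 and Slc25a5 differ at 8 of the 54 bases, 3 of them in the signature, and Slc25a31 differs from Slc25a4 at 19 and from Slc25a5 at 17.

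Other abundant or paired mitochondrial carriers had smaller fold changes. Slc25a3, the phosphate carrier, had 324.3 and 321.1 CPM in RIP against 347.9 and 342.4 CPM in input, and its log2 fold change of -0.10 ± 0.0279 lost its call without input replicate 1 (-0.08), with no low-count filter (-0.04) and with DESeq2 (-0.07), and was 0.05 after the coding-length offset. Slc25a10, the dicarboxylate carrier, had 94.9 and 93.0 CPM in RIP against 91.7 and 85.9 CPM in input and did not pass with TMM (0.08), but was called lower with total counts (-0.27) and higher after the coding-length offset (0.44). Slc25a39, a carrier required for mitochondrial glutathione, had 129.0 and 132.1 CPM in RIP against 166.9 and 179.0 CPM in input, a log2 fold change of -0.41 ± 0.0378. The pyrimidine nucleotide carriers Slc25a33 and Slc25a36 both fell, by 0.49 and 0.35 on the log2 scale, at 17.9 and 18.2 CPM in RIP against 22.8 and 27.9 CPM in input for Slc25a33 and 18.9 and 18.8 CPM in RIP against 22.9 and 25.1 CPM in input for Slc25a36. After the coding-length offset Slc25a36 did not pass (-0.05). Of the mitoferrins, iron carriers, Slc25a28 had 40.9 and 37.6 CPM in RIP against 43.9 and 43.9 CPM in input and Slc25a37 had 12.1 and 11.4 CPM in RIP against 11.3 and 8.40 CPM in input. Slc25a28 fell by 0.16 on the log2 scale, a call lost without RIP replicate 2 (-0.10), input replicate 1 (-0.15) or input replicate 2 (-0.16), with RLE scaling (-0.14), with no low-count filter (-0.11), with DESeq2 (-0.14) and after the offset (-0.05). Slc25a37, at 0.25 ± 0.128, did not pass, and passed without input replicate 1 (0.49), with no low-count filter (0.30) and after the offset (0.48).

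The genes that bring mitochondrial carriers to their membrane were mostly lower in RIP. Of 12 genes of this import route, which runs through outer membrane receptors, small Tim chaperones and an inner membrane channel, 2 rose, 8 fell and 2 were not called, with a median log2 fold change of -1, which was 0.051 after the coding-length offset. Among all genes tested 38.7% were called higher and 38.6% lower. Tomm70a, the receptor that recognises carrier precursors, had 411.7 and 395.2 CPM in RIP against 180.7 and 183.3 CPM in input, while Timm22, the channel that inserts them, had 47.1 and 46.7 CPM in RIP against 111.6 and 103.9 CPM in input. Among the Tim chaperones, Timm8b had 43.96 and 45.3 CPM in RIP against 191.6 and 191.7 CPM in input and Timm8a1 had 45.97 and 47.95 CPM in RIP against 21.97 and 22.6 CPM in input. The RIP libraries were thus above input for Tomm70a and Timm8a1 and below it for Timm22 and Timm8b. Of 8 tested carriers and pores of mitochondria without an Slc symbol 1 rose and 6 fell. Mpc2, a subunit of the pyruvate carrier, had 37.7 and 40.03 CPM in RIP against 187.3 and 191.1 CPM in input. The porin Vdac3 had 121.2 and 121.1 CPM in RIP against 329.3 and 318.1 CPM in input, and Vdac1 had 269.4 and 265.0 CPM in RIP against 241.5 and 235.3 CPM in input. Vdac1 rose by 0.16 with TMM and had -0.18 under both total-count and upper-quartile scaling. The difference between these lists and the mitochondrial carriers was not tested.

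Coding length moved with the fold change across the members, as it did across the table. Spearman's rho between log2 fold change and coding length was 0.57 over the 141 members, 0.40 over the mitochondrial carriers, 0.50 over the other families and 0.78 over 9819 protein-coding genes at the same input threshold. These are descriptions over genes of the same 4 libraries, and long genes also collect more counts. Mitochondrial carriers had a median coding length of 963 nt (825 to 2034 nt) and the other members one of 1564.5 nt (432 to 3714 nt). Below 1200 coding nt, a limit chosen after the values were seen, the median log2 fold change was -0.17 over 27 mitochondrial carriers and 0.08 over 19 other members. From 1200 nt to under 2400 nt it was 0.83 over 6 mitochondrial carriers and 0.56 over 74 others, and from 2400 nt it was 1.15 over 15 others, of which 13 rose, 1 fell and 1 was not called.

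After an offset that removes the trend of log2 fold change with coding length over all genes, the median was 0.11 for mitochondrial carriers and 0.24 for other members, a difference of -0.13 in place of -0.65. Then 15 of 33 mitochondrial carriers were called higher and 7 lower, and 62 and 26 of 108 other members. Over the 9821 genes with a coding sequence at the input threshold, 49.6% were called higher and 33.6% lower after the offset, with a median of 0.13. Slc38a1, Slc38a2 and Slc36a4 stood furthest above the trend among the members named here, at 1.66, 1.63 and 1.39, and Slc4a5, Slc26a7 and Slc27a6 furthest below it, at -2.17, -1.76 and -1.60. The ion carriers, whose median of 1.11 was the highest of any role, stood at 0.15 after the offset.

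**Figure D3:**
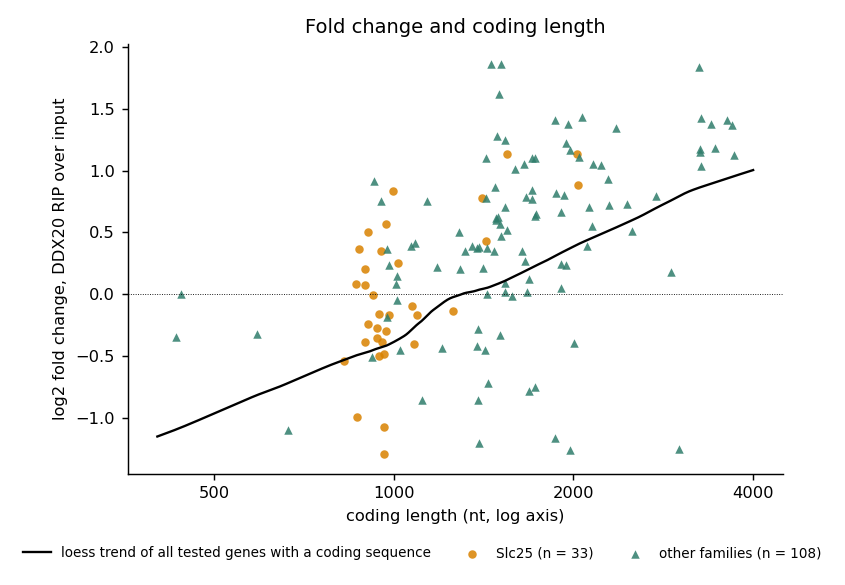
Log2 fold change of DDX20 RIP over input (y axis) against coding length (x axis, nt, log axis) for 33 Slc25 members (circles) and 108 members of other families (triangles), with the loess trend of all tested genes that have a coding sequence as a line. Of the 33 Slc25 members 27 lie below 1200 nt, and points of the other families lie on both sides of the trend, from -1.25 to 1.87.

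The length of the 3′ UTR, the untranslated part after the stop codon, moved with the fold change as well. Spearman's rho with log2 fold change was 0.45 over all members, 0.51 over the mitochondrial carriers and 0.42 over the other families, and 0.29 over the protein-coding genes at the threshold. After the coding-length offset it was 0.47, 0.48 and 0.46 for the members and 0.32 for all such genes. Among mitochondrial carriers under 1200 coding nt, the 8 with a 3′ UTR of at least 1500 nt (a limit chosen after the values were seen) had a median log2 fold change of 0.30, with 5 higher, 1 lower and 2 not called, and the 19 with a shorter one had a median of -0.30, with 2 higher, 14 lower and 3 not called. Slc25a4 and Slc25a5 have 3′ UTRs of 666 and 263 nt. Slc25a36, with 4085 nt, and Slc25a31, with 1028 nt, have 3′ UTRs longer than the family's median of 1012 nt, and both fell. After the coding-length offset Slc25a36 did not pass (-0.05). The GC content of the coding sequence was little related to fold change (rho of -0.09 over the members, median GC 54.3%).

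**Figure D4:**
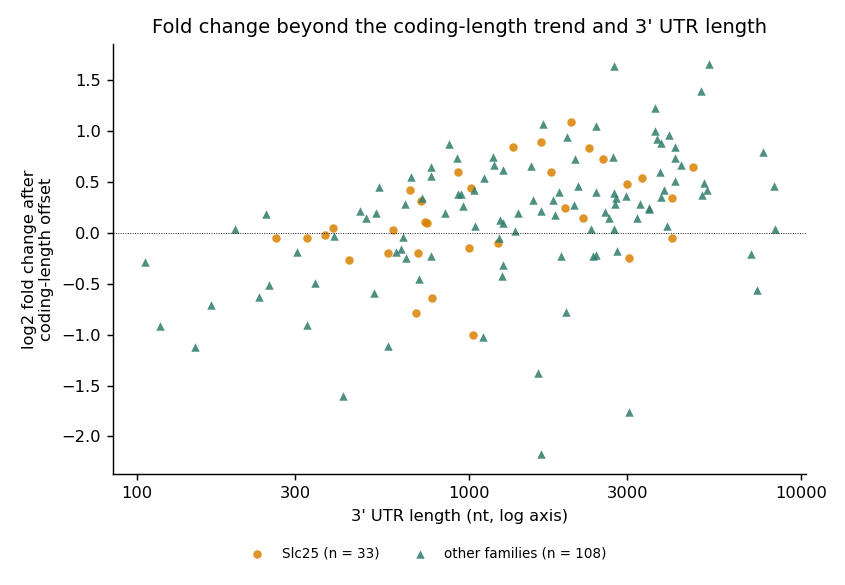
Log2 fold change of DDX20 RIP over input after the coding-length offset (y axis) against 3′ UTR length (x axis, nt, log axis) for 33 Slc25 members (circles) and 108 members of other families (triangles). Points rise from left to right with wide scatter, with a Spearman's rho of 0.48 for Slc25 and 0.46 for the other families.

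At the edge of the threshold, in CPM of the library total, Slc27a6 had 3.61 and 3.51 CPM in RIP against 9.45 and 10.8 CPM in input, Slc25a14 had 6.14 and 7.07 CPM in RIP against 11.2 and 9.43 CPM in input, and Slc38a9 had 8.92 and 9.23 CPM in RIP against 11.7 and 9.39 CPM in input. Just outside it were Slc37a4, with 10.2 and 9.81 CPM in RIP against 10.5 and 9.06 CPM in input, Slc41a3, with 3.74 and 4.24 CPM in RIP against 10.3 and 8.22 CPM in input, and Slc16a11, with 3.02 and 3.90 CPM in RIP against 9.40 and 8.40 CPM in input. Of the 199 genes below the threshold 2 reached a mean of 10 CPM in RIP, and of the members 17 were below it in RIP. With members chosen instead on a mean RIP level of at least 10 CPM, 89 of 126 were higher and 22 lower. The largest adjusted p among called members was 0.0491 in edgeR's test, for Slc25a14, whose call was lost without RIP replicate 1 (-0.21) or input replicate 1 (-0.16), with RLE scaling (-0.28), no low-count filter (-0.25), limma-voom (-0.30) or DESeq2 (-0.28), and after the offset (-0.02). Of the members, 9 share at least 10% of their exon length with another gene, among them Slc33a1 and Slc25a33 of those named here, and since the library kit does not mark strand, reads in the shared part cannot be assigned to either gene.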

How the data were processed

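The authors deposited 1 table of raw counts, with a row per gene and a column for each of 2 DDX20 RIP and 2 input libraries. Libraries were made with an unstranded kit (NEBNext Ultra RNA) and read as 150-nt pairs, per the labels' protocols. The build was GRCm38, and featureCounts, SAMtools, STAR 2.7.2b, Trimmomatic 0.36 and cutadapt 4.1 are the tools listed, per the submitters' processing notes. For tool order, settings and annotation release, nothing is given in the sources used here. Identifiers were stripped of versions and matched to GENCODE M21, which named 52081 of 55357 (94.1%) and gave lengths, coordinates and sequences.

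Counts were filtered with filterByExpr, scaled by TMM and tested with edgeR 4.0.16 (R 4.3.3; quasi-likelihood, robust), with Benjamini-Hochberg adjustment over 17422 genes and a threshold of 0.05. TMM factors were 0.88 and 0.892 in RIP and 1.13 in both input libraries. Each standard error is the size of the log2 fold change over the root of its F statistic. The coding-length offset is a loess curve (span 0.3) of log2 fold change on log10 coding length. Data were simulated for RIP against input on 16996 genes, of which 16797 were unchanged, with a set coefficient of variation of 0.03. Of genes changed 1.5-fold 63.3% were called, of those changed 2-fold 86%, of those changed 4-fold 96% and of unchanged genes 0.0417%. In the real libraries 38.7% of genes tested were called higher and 38.6% lower. With so few changed genes, the simulation cannot show how often a call turns on the scaling. Its rates hold only for such simulated data. Same-numbered libraries did not deviate together (correlation -0.00312). Independent counting noise in each library would weaken such a correlation even if libraries were paired. The check therefore cannot decide whether replicate numbers pair libraries, and the labels do not say so.

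Alternatives were RLE, upper-quartile and total-count scaling, no low-count filter, halved counts, the offset, a replicate block, each library left out, DESeq2 1.42.0, limma-voom (limma 3.58.1), a 2-fold minimum and other rules for the members. The text names the highest and lowest fold changes of each sub-group and role, the members with the highest input levels, the genes nearest the threshold, fixed pairs and partners, and called genes of related lists, of which examples are given. Members, lists and rules were chosen with earlier results of these data known. Some related genes are not reported here.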

Additional observations from a re-analysis of the deposited data

How the results depend on the processing

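Among the 141 members, 100 kept direction and call with total counts or upper-quartile scaling, 138 with RLE scaling, 140 with limma-voom and 133 with DESeq2. With either total counts or upper-quartile scaling 55 members were lower (5 Slc25 members higher and 33 other members lower). The Slc25 median of -0.133 was -0.482 with total counts, -0.475 with upper-quartile scaling, -0.111 with RLE, -0.08 with no low-count filter, -0.189 with halved counts, -0.11 with DESeq2 and 0.105 after the coding-length offset, where 7 Slc25 members were lower. It was -0.05 at a member threshold of 5 CPM, -0.156 at 20 CPM and -0.003 for members chosen on RIP CPM. The median of the other families (0.518) was 0.17 with total counts, 0.176 with upper-quartile scaling, 0.573 with no filter, 0.465 with halved counts, 0.239 after the offset, 0.387 at 5 CPM, 0.602 at 20 CPM and 0.629 for members chosen on RIP CPM. The difference of these medians (-0.652) was -0.134 after the offset, -0.436 at 5 CPM and -0.758 at 20 CPM. With 1 library left out, the Slc25 median lay between -0.163 and -0.046, that of the other families between 0.508 and 0.564, and the difference between -0.728 and -0.553. Then 82 to 86 members were higher and 30 to 34 lower. At least 2-fold changes were called for 31 members higher and 7 lower, 2 Slc25 members higher and 2 lower, and 29 others higher and 5 lower. Of members chosen on RIP CPM 22 were lower, 11 of them in other families, and at 20 CPM 13 of the other families were lower. With the replicate number as a block, 88 members were higher and 36 lower, and 1 call of 141 was gained. Leaving out members that share 10% or more of their exons was chosen after seeing the data and kept 132. Of the members that passed in either fit 17 changed sign with upper-quartile scaling and 18 with total counts, 5 of them called both ways, and 17 changed sign after the offset, 6 of them called both ways. Among the genes named by the rule, the fold changes that turned round were, with upper-quartile scaling and with total counts, -0.13 and -0.14 for Slc16a3, -0.26 and -0.27 for both Slc25a10 and Slc25a4, -0.32 and -0.33 for Slc7a5, and with either, -0.2 for Slc9a3r2 and -0.18 for Vdac1. After the offset they were -0.23 for Slc7a5, 0.05 for Slc25a3, -0.22 for Slc39a10 and -0.04 for Slc4a1ap. The cause was not tested. With 2 libraries a group and no other antibody, direction is uncertain for fold changes smaller than the shift of 0.35 between scalings. Larger ones can also turn round after the offset, such as that of Slc39a10, from 0.51 with TMM to -0.22.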

Other observations

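Of the 199 solute carrier genes below the input threshold, 99 were tested, and in edgeR's test 17 were higher in DDX20 RIP, 26 lower and 56 not called, with a median log2 fold change of -0.28. That is 17.2% higher and 26.3% lower. Over all genes tested the shares were 38.7% and 38.6%, but these include the 10116 genes at the input threshold. Of those 10116 genes 54.2% were called higher and 35.9% lower. The share over all genes below the threshold was not computed, so no excess or shortfall of these solute carrier genes can be read from the shares given. Their low counts give each fold change a wide error.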
